A study of Mus musculus with 127 samples.

Results

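The 10 nuclei of the series fall into a set of 4 whose profile titles start with B16F (Cell17 to Cell20) and a set of 6 whose titles start with B18F (Cell25 to Cell28, Cell38 and Cell39), and these sets were compared in how much of each megabase was recovered and where it lay along the cutting axis. Together the sets hold all 10 nuclei of the series and all of its samples, 63 B16F profiles and 59 B18F profiles, other than 5 controls without position values. All nuclei come from F123 mouse embryonic stem cells of strain CAST x 129, grown with LIF, passaged off feeder fibroblasts and left untreated. No genotype, treatment or time separates the sets, and the sources used here do not say what the prefix stands for. Whether the nuclei of a set stem from more than 1 culture is not given either, and p-values refer to the spread from nucleus to nucleus, which may be technical. The measurements are of DNA, so embryonic stem cell identity could not be checked against marker genes.

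Sequential genome architecture mapping cuts a nucleus into serial slices, called nuclear profiles, amplifies the DNA of each slice and sequences it. A stretch of genome recovered from a slice is thereby placed along the cutting axis. Chromosomes occupy separate territories in mammalian nuclei, so stretches of a chromosome tend to be recovered from neighbouring slices, and a stretch lost in cutting or amplification is missing from that nucleus. F123 cells are male, with 1 X and 1 Y, and the amplified gene families of both chromosomes exist in many near-identical copies.

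Each nucleus had 2 deposited position files, in which a 10 kb window of the mm10 genome has 1 position. Both were combined here, so that a window counted once per nucleus for coverage. For positions, a window listed in both files entered once from each file. The B16F nuclei located 123271 (Cell17), 86768 (Cell18), 99272 (Cell19) and 74281 (Cell20) windows, and the B18F nuclei 144231 (Cell25), 107300 (Cell26), 107147 (Cell27), 125903 (Cell28), 89545 (Cell38) and 51001 (Cell39). The means were 95898 ± 20907 (SD, n = 4) and 104188 ± 32052 (SD, n = 6), a difference within the spread between nuclei (exact permutation p = 0.671). The B16F nuclei had more profiles in the series, 12 to 23 against 7 to 15. Windows per profile were fewer on average in B16F, 5360, 5423, 8273 and 6190 against 4636 (Cell39) to 15738 (Cell28) in B18F. On the log2 scale this difference was 0.75 and did not pass (exact permutation p = 0.0810, adjusted p = 0.217 over 13 measures of a nucleus). The number of windows stands for depth here, and in Cell39, the shallowest nucleus, an autosomal 1 Mb bin held 19.4 located windows of 100 on average, against 52.9 in Cell25.

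With both files combined, coverage of the genome was more alike among the B16F nuclei than among the B18F nuclei or across the sets. Coverage of a 1 Mb bin is the log2 number of located windows plus 1, minus the mean of that value over the autosomal bins of the nucleus. Over 2669 bins, the Pearson correlations of the 6 B16F pairs ran from 0.341 (Cell18 with Cell19) to 0.654 (Cell18 with Cell20), with a mean of 0.436. The 15 B18F pairs ran from 0.0195 to 0.375 (Cell26 with Cell27), with a mean of 0.168. The 24 pairs across the sets ran from −0.0381 (Cell18 with Cell25) to 0.377 (Cell20 with Cell26), with a mean of 0.141.

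Pairs within a set exceeded pairs across sets by 0.103 in mean correlation (exact permutation p = 0.0238 over 210 splits of the nuclei, two-sided). The mean of the B18F pairs, 0.168, was near that of the mixed pairs, 0.141. The excess of pairs within a set was 0.104 when the mean of each chromosome was subtracted first (exact permutation p = 0.0190), 0.109 over autosomal bins (exact permutation p = 0.00952) and 0.0782 when all nuclei were thinned to the windows of Cell39 (exact permutation p = 0.0333). With file 0 alone it was 0.0509 and with file 1 alone 0.0764 (exact permutation p = 0.00476 and 0.00952). The lead of the B16F pairs over the B18F pairs was much smaller with file 0 alone, at means of 0.158 and 0.132, than with file 1 alone, at 0.253 and 0.154. Without any 1 of the B16F nuclei, the excess of pairs within a set over pairs across sets missed the threshold. That excess was 0.0781 without Cell17, 0.0556 without Cell18, 0.0845 without Cell19 and 0.0668 without Cell20 (exact permutation p = 0.0952, 0.190, 0.0952 and 0.107 over 84 splits).

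**Figure D1:**
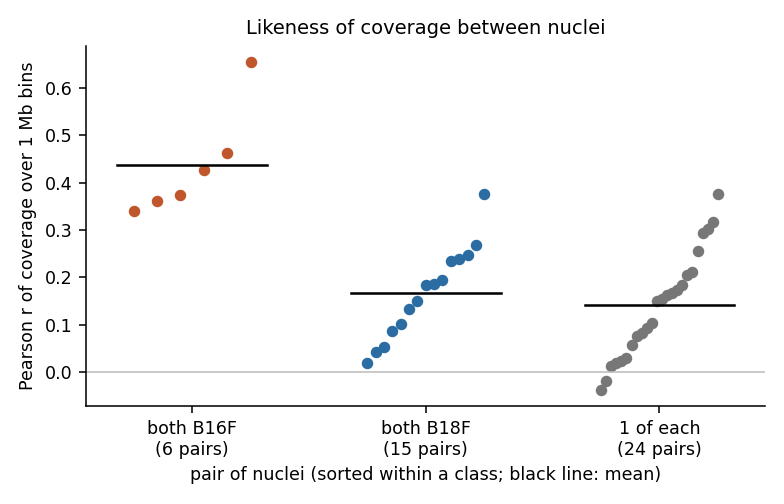
Pearson correlation of coverage over 2669 bins of 1 Mb for each of the 45 pairs of nuclei, by whether both nuclei are B16F, both are B18F or 1 is of each; points are pairs and black lines means. The 6 B16F pairs sit between 0.341 and 0.654, and the B18F and mixed pairs reach at most 0.377.

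With both files combined, single megabases were also less variable among the B16F nuclei. The standard deviation of coverage within a set had a median over bins of 0.31 (B16F) and 0.50 (B18F) on the log2 scale, and it was lower in B16F in 2110 of 2669 bins. Whether this holds without Cell39, the shallowest nucleus, was not tested. The coefficient of variation of located windows over the autosomal bins of a nucleus was 0.251, 0.330, 0.331 and 0.3198 in Cell17 to Cell20. It was 0.347, 0.434, 0.343, 0.381, 0.333 and 0.664 in the B18F nuclei, in the order Cell25, Cell26, Cell27, Cell28, Cell38 and Cell39. Every B18F nucleus was thus above every B16F nucleus, by 0.109 in the mean, although Cell38, at 0.333, was close to Cell19, at 0.331, and the difference did not pass (exact permutation p = 0.0905, adjusted p = 0.217). Without Cell39 it was 0.0593 (exact permutation p = 0.0159, adjusted p = 0.103), and with file 0 alone it turned to −0.0617.

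No 1 Mb bin differed in coverage between the sets past the threshold of an adjusted p of 0.05 in limma (0 of 2669, 0.0%, smallest adjusted p = 0.0721). At an unadjusted p under 0.05, limma found 326 bins (12.2%), of which 166 (6.22%) were higher and 160 (5.99%) lower in B18F, and exact permutation of single bins found 295. The counts moved with Cell18 and with the scaling. Without Cell18 the counts were 110 higher and 81 lower, and with unscaled log2 windows 69 higher and 22 lower. All 6 B18F nuclei were above all 4 B16F nuclei in 28 bins (1.05%) and below them in 61 (2.29%). Bins at p under 0.05 came in runs: of 324 that had a next bin, 38.9% were followed by another in the same direction. Neighbouring autosomal bins correlated in coverage within every nucleus, at 0.408 (Cell20) to 0.557 (Cell26), so the bins of a run are not independent.

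The bin with the smallest p was chr9:45000001-46000000, with 20 protein-coding genes, among them Cd3e, a chain of the T cell receptor complex, Il10ra, the interleukin-10 receptor alpha chain, and Bace1, the beta-secretase. Cell17, Cell18, Cell19 and Cell20 located 23, 17, 20 and 12 of its 100 windows, while Cell25, Cell26, Cell27, Cell28, Cell38 and Cell39 located 74, 80, 40, 44, 46 and 44. The lowest B18F nucleus, at 40, was above the highest B16F nucleus, at 23. After scaling, coverage was 1.49 ± 0.29 higher (SE) on the log2 scale in B18F, a 2.81-fold difference (limma p = 2.70e-05, adjusted p = 0.0721). It passed without Cell25 (1.49, adjusted p = 0.0447) and without Cell28 (1.61, adjusted p = 0.0453).

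At a bin size of 250 kb, the interval chr9:45250001-45500000 within that megabase passed adjustment (2.13 ± 0.33 SE on the log2 scale, adjusted p = 0.0367 in limma over 10657 bins), alone among them. It holds Il10ra, Tmprss13, Fxyd6 and Fxyd2, the last a regulatory subunit of the sodium-potassium pump. The B16F nuclei located 3, 2, 4 and 1 of its 25 windows, and the B18F nuclei between 9 (Cell38) and 19 (Cell26), so that the sets did not overlap in windows before scaling either.

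The next bins in the order of p lay on chromosome 12. In chr12:108000001-109000000, which holds Setd3, Ccnk, Ccdc85c and 10 more genes including Yy1, a zinc finger transcription factor, the B16F nuclei located 22, 16, 16 and 15 windows. The B18F nuclei located 31 (Cell25) to 91 (Cell28) there, above every B16F nucleus. The difference was 1.40 ± 0.31 (SE) on the log2 scale (adjusted p = 0.113). In chr12:86000001-87000000, whose 10 genes include Tgfb3, a growth factor, and Esrrb, a nuclear receptor of the pluripotency network, the B16F nuclei located 27, 14, 31 and 9 windows and the B18F nuclei 46, 84, 39, 84, 45 and 29. Cell39, the shallowest nucleus, was here within the B16F range in windows and above it after scaling, and the difference was 1.39 ± 0.31 (SE) on the log2 scale (adjusted p = 0.113). Without Cell25, both bins and chr12:107000001-108000000, with Bcl11b, a zinc finger transcription factor of T cells, passed (1.62, 1.51 and 1.38, adjusted p = 0.0156, 0.0447 and 0.0447).

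The bins that were lower in B18F with the smallest p held few genes. In chr5:49000001-50000000, which has no protein-coding gene, the B16F nuclei located 48, 36, 63 and 41 windows and the B18F nuclei 6 (Cell39) to 33 (Cell26), without overlap. The difference was −1.22 ± 0.28 (SE) on the log2 scale, 2.33-fold (adjusted p = 0.131). In chr16:28000001-29000000, with Fgf12, a fibroblast growth factor homologue, and Mb21d2, the B16F nuclei located 53, 36, 65 and 27 windows and the B18F nuclei 8 (Cell39) to 29 (Cell25 and Cell28). The sets overlapped in windows through Cell20 and did not overlap after scaling, at −1.09 ± 0.26 (SE) on the log2 scale (adjusted p = 0.131). In chr18:88000001-89000000, whose 1 gene is Socs6, a suppressor of cytokine signalling, the B16F nuclei located 57, 48, 48 and 47 windows and the B18F nuclei 4 (Cell39) to 35 (Cell25 and Cell27), a difference of −1.15 ± 0.30 (SE, adjusted p = 0.162).

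**Figure D2:**
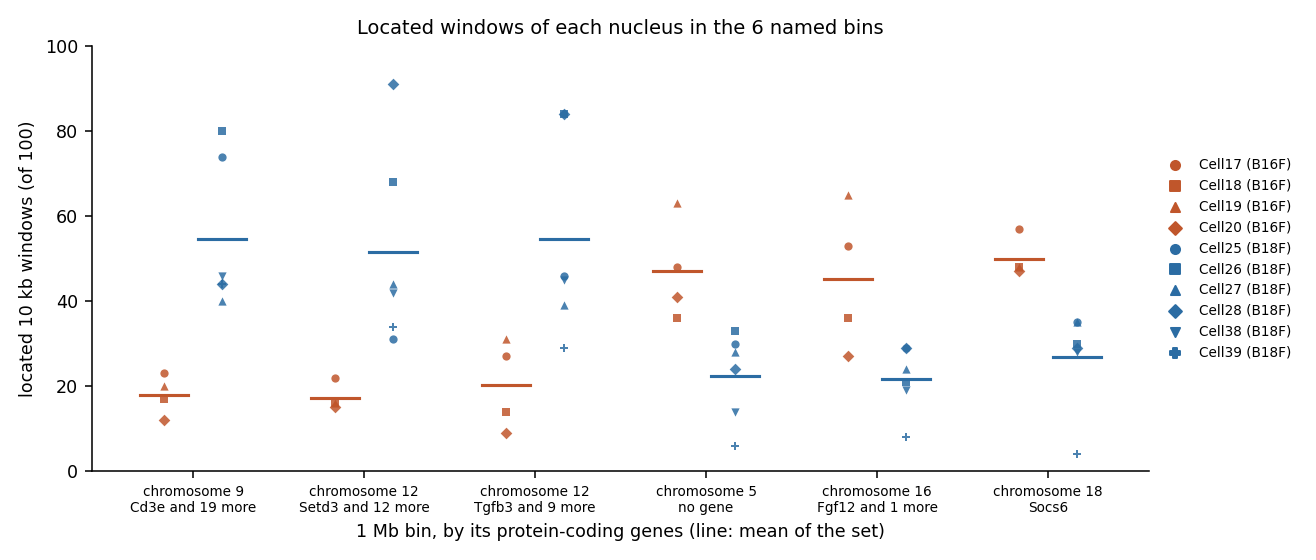
Located 10 kb windows, of 100, in each nucleus for the 3 bins higher and the 3 bins lower in B18F with the smallest p, none of which passed adjustment; colours are the sets, symbols the nuclei and lines the means of a set. In the chromosome 9 bin, the B16F nuclei sit between 12 and 23 and the B18F nuclei between 40 and 80.

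Runs of at least 3 adjacent bins with an unadjusted p under 0.05 in the same direction numbered 12 (54 bins) higher and 17 (69 bins) lower in B18F. The longest higher run was chr12:79000001-89000000, 10 bins with 134 genes, among them Numb, a cell fate determinant. Its bins held 37.8, 21.1, 30.8 and 15.5 windows on average in Cell17 to Cell20 and 68.2, 52, 36.6, 81.6, 35.3 and 33.7 in the B18F nuclei. Cell17 lay among the B18F nuclei in windows, and after scaling its mean (−0.28 on the log2 scale) was below that of the lowest B18F nucleus, Cell27 (−0.09). The mean difference was 0.87 on the log2 scale.

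A further 7 bins of that chromosome, chr12:104000001-111000000, formed the second longest higher run. This region holds 62 genes: a cluster of Serpina protease inhibitors, Dicer1, which cuts precursor RNAs into microRNAs, Tcl1, an AKT co-activator expressed in embryonic stem cells, and Dlk1 and Rtl1 of an imprinted domain. Its bins held 32.6, 17.7, 23.4 and 19.4 windows on average in the B16F nuclei and 36.1 (Cell25) to 90.3 (Cell28) in the B18F nuclei. The mean difference was 1.001 on the log2 scale, although Cell25 (−0.47) was no higher than Cell20 (−0.46) after scaling. With 5 Mb bins, chr12:105000001-110000000 passed adjustment (1.09 ± 0.25 SE on the log2 scale, adjusted p = 0.0339 in limma over 551 bins). The B16F nuclei located 89 (Cell18) to 149 (Cell17) of its windows and the B18F nuclei 171 (Cell39) to 458 (Cell28).

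The other higher runs held 3 to 5 bins. The run chr4:150000001-155000000 has 56 genes, among them Eno1, an enolase of glycolysis, and Per3, of the circadian clock. Its bins held 13.2 (Cell19) to 23.8 (Cell17) windows on average in B16F and 18.2 (Cell26) to 80.2 (Cell28) in B18F, and the sets overlapped through Cell26. In chr5:141000001-145000000, with Actb, the cytoplasmic beta-actin, and Rac1, a small GTPase of the actin cytoskeleton, the ranges were 23.5 to 31.8 and 38.5 to 81.5 windows. The sets did not overlap in windows, while after scaling Cell20 (0.05 on the log2 scale) was above Cell27 (0.01). The run chr9:50000001-53000000, with Sdhd, a subunit of succinate dehydrogenase, and Cryab, a small heat shock protein, lies on the same chromosome as the bin with the smallest p. Its ranges were 17 to 32.3 windows in B16F and 29 to 75.3 in B18F. They overlap in windows and not after scaling, where the highest B16F nucleus was Cell19 (−0.29) and the lowest B18F nucleus Cell38 (−0.15).

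On chromosome 12, 29 of 117 bins were higher at p under 0.05 and 0 lower, against 6.22% and 5.99% of all bins. The count ranged from 15 to 34 over 22 other settings and omissions of a nucleus. The 8 bins lower on chromosome 12 in any of them arose where the chromosome's own mean was subtracted, with 15 higher, and 1 with file 0 alone. Chromosome 18 had 20 of 88 bins lower and 1 higher, chromosome 2 had 22 of 179 lower and 6 higher, chromosome 3 had 18 of 157 lower and 1 higher, and chromosome 16 had 8 of 95 lower and 0 higher, all 8 without overlap of the sets. Without Cell18 the count of lower bins on chromosome 18 was 8, and without Cell20 it was 13. Over the other settings and omissions of a nucleus, the lower counts ranged from 4 to 27 on chromosome 18, from 0 to 26 on chromosome 2, from 0 to 31 on chromosome 3 and from 2 to 18 on chromosome 16. Chromosomes 1 (13 higher, 1 lower), 4 (13 and 0), 7 (14 and 2), 8 (11 and 1) and 9 (15 and 4) leaned the other way, while chromosomes 13 and 15 had 2 and 2, and 1 and 2.

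The X chromosome had 46 of 168 bins lower and 0 higher in B18F at p under 0.05, and 18 without overlap of the sets. Its longest run, and the longest lower run of the genome, was X:24000001-38000000, 14 bins with 100 genes, many of them members of the multicopy Slx, Spin2 and Btbd35f families. The bins held 67.8, 66.9, 62.5 and 43.6 windows on average in the B16F nuclei and 61.1 (Cell25), 32.9, 40.1, 42.3, 20.7 and 18.2 (Cell39) in the B18F nuclei. Cell25, the deepest nucleus, was within the B16F range in windows, and after scaling it was highest of its set (0.22 on the log2 scale, against 0.54 in Cell17, the lowest of B16F). The mean difference was −0.88 on the log2 scale. The intervals X:1-5000000 and X:25000001-30000000 passed adjustment at a bin size of 5 Mb (−1.03 ± 0.24 and −0.99 ± 0.24 SE on the log2 scale, adjusted p = 0.0339 and 0.0407 in limma). Genes there exist in near-identical copies, and how the authors placed reads that match several copies is not given in the sources used here. Without Cell18 the count of lower X bins was 23, and with unscaled windows 13. The counts of X bins also depended on the file: file 0 alone had 19 bins higher and 10 lower, and file 1 alone 1 higher and 30 lower. Coverage of X as a whole was lower in B18F with either file, with differences of −0.279 (file 0) and −0.618 (file 1) on the log2 scale.

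On Y, 33 of 91 bins were higher in B18F and 0 lower, and the count moved widely with single nuclei. Coverage of Y relative to the autosomal density was −0.65, −1.98, −0.32 and −1.33 on the log2 scale in Cell17 to Cell20, and 0.53 (Cell25), −0.90, −0.75, −0.05, −0.53 and −1.19 (Cell39) in the B18F nuclei. The sets overlapped widely (difference 0.59, exact permutation p = 0.210). The count of higher Y bins was 3 without Cell18, 9 without Cell25, 12 without Cell20, 13 without Cell28, 20 without Cell38, 58 without Cell19 and 59 without Cell39.

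Over whole chromosomes no difference passed (0 of 21 at an adjusted p of 0.05 in limma, 0.0%, and 1, or 4.76%, at an unadjusted p). That chromosome was X, with log2 coverage of 0.03, 0.49, −0.02 and 0.23 in the B16F nuclei and 0.12, −0.28, −0.28, −0.49, −1.04 and 0.05 in the B18F nuclei. The difference was −0.50 ± 0.19 (SE), with Cell25 and Cell39 inside the B16F range (adjusted p = 0.384, exact permutation p = 0.0714). Chromosome 12 was −0.15, −0.37, −0.18 and −0.25 in B16F and 0.09, −0.07, −0.18, 0.19, −0.14 and 0.75 in B18F. Cell39 was the highest by far and the difference was 0.34 ± 0.16 (SE), with Cell27 inside the B16F range (adjusted p = 0.384, exact permutation p = 0.0524). The third highest was chromosome 9 (0.17 ± 0.13 SE). Besides X, the lowest were chromosome 18 (−0.31 ± 0.17 SE), which had 0.61 in Cell18 and −0.53 in Cell39 at its extremes, and chromosome 16 (−0.24 ± 0.15 SE), where Cell39, at 0.23, was higher than all other nuclei.

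**Figure D3:**
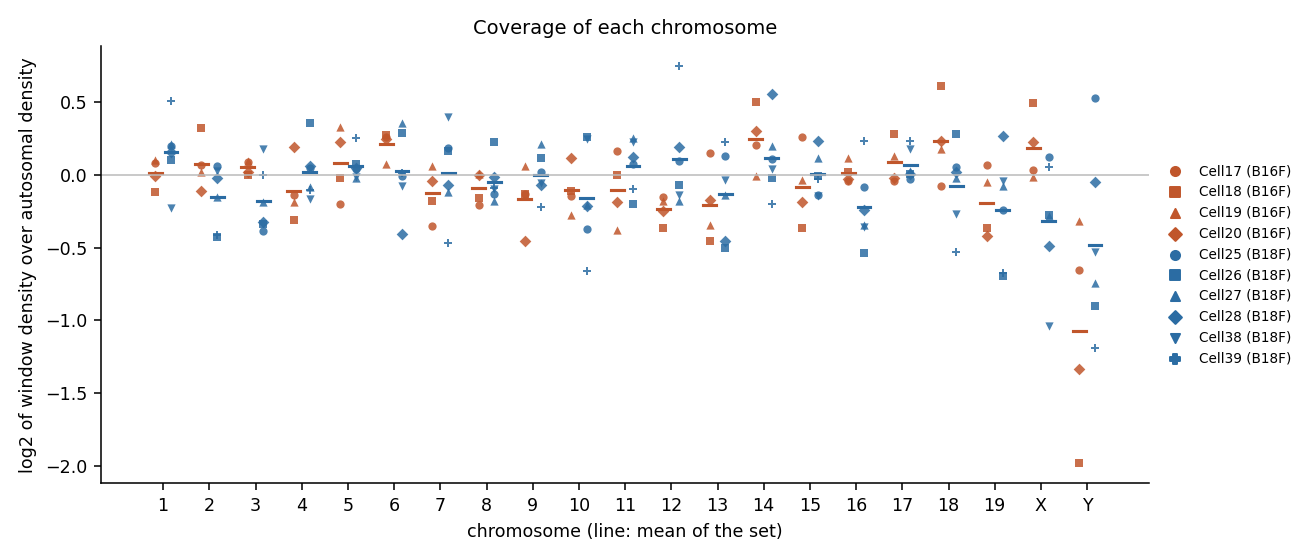
Coverage of each chromosome as the log2 of its share of located windows over its share of the autosomal length, by nucleus; colours are the sets and lines the means. The sets overlap on every chromosome, with X lowest in Cell38 (−1.04) and Y lowest in Cell18 (−1.98).

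Coverage followed gene content differently from nucleus to nucleus. Autosomal bins were sorted by their number of protein-coding genes in the RefSeq annotation of GRCm38.p6. The median difference between the sets (B18F minus B16F, log2 scale) was −0.19 in the 268 bins without a gene, −0.08 with 1 to 2 genes, −0.02 with 3 to 5, 0.01 with 6 to 10, 0.08 with 11 to 20 and 0.13 in the 242 bins with 21 to 67 genes. At p under 0.05, 133 of all 2410 autosomal bins were higher and 114 lower, 10.2% in either direction. The class without a gene had 1 higher and 25 lower. The 418 bins with 11 to 20 genes had 42 higher and 9 lower, and the class with most genes 17 higher and 4 lower. The trend was steepest in Cell38, whose median coverage went from −0.44 in bins without a gene to 0.34 in those with most, and it ran from −0.14 to 0.22 in Cell25 and from −0.19 to 0.16 in Cell28. Cell20 went the other way, from 0.21 to −0.01.

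The Spearman correlation of coverage with gene number over autosomal bins was 0.00554, 0.000117, 0.0614 and −0.142 in Cell17 to Cell20. In the B18F nuclei it was 0.190 (Cell25), −0.0451 (Cell26), 0.201 (Cell27), 0.198 (Cell28), 0.464 (Cell38) and 0.0267 (Cell39). Cell26 and Cell39 lay within the B16F range and the other 4 above it, and the means of −0.0187 ± 0.0867 (SD, n = 4) and 0.172 ± 0.176 (SD, n = 6) did not differ past the threshold (exact permutation p = 0.100, adjusted p = 0.217). Windows per profile, which also ran higher in most B18F nuclei, and the number of slices moved with the sets, and their part in this difference was not tested.

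**Figure D4:**
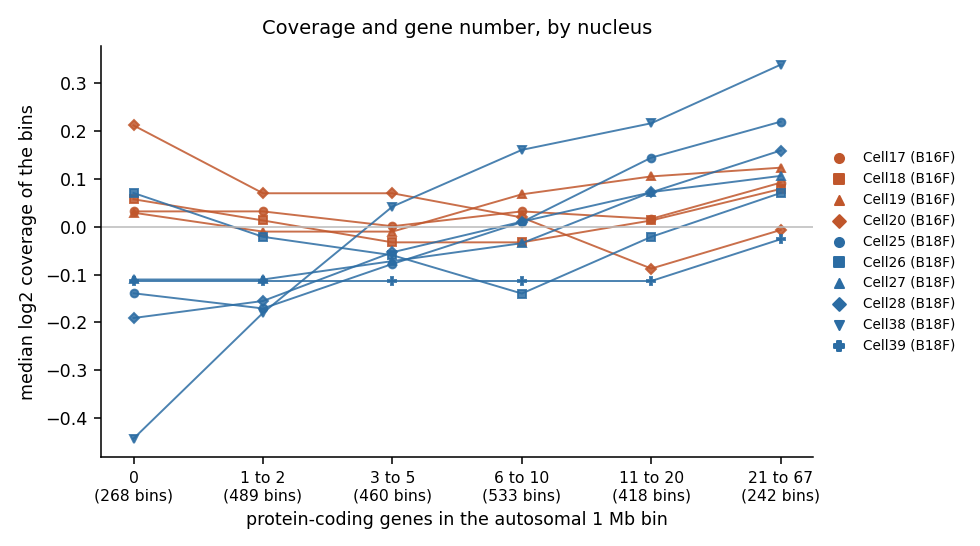
Median log2 coverage of autosomal 1 Mb bins in 6 classes of protein-coding gene number, 1 line per nucleus. From the class without a gene to the class with 21 to 67 genes, the medians go from −0.44 to 0.34 in Cell38 and from 0.21 to −0.01 in Cell20.

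Gene lists were described by their bins, beside a median difference of −0.03 and 6.22% higher and 5.99% lower at p under 0.05 over all bins. Of 20 bins with a pluripotency gene, 0 were called, 4 were higher and 0 lower at an unadjusted p under 0.05, with a median difference of 0.21. The 4 were those of Esrrb (above), Utf1, a chromatin factor of undifferentiated cells, Tcl1 and Prdm14, a repressor of differentiation. The bin of Utf1 held 24, 16, 19 and 20 windows in the B16F nuclei and 69, 60, 49, 40, 55 and 18 in the B18F nuclei, where Cell39 was within the B16F range before scaling and above it after (1.12 ± 0.27 SE on the log2 scale, adjusted p = 0.131). The bins of Esrrb and Tcl1 belong to the chromosome 12 runs, so they are not separate from those.

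Among the 6 pluripotency loci named, the bin of Esrrb (above) had no overlap of the sets after scaling, at 1.39 on the log2 scale, without passing adjustment. In the bins of Pou5f1, Nanog, Sox2, Klf4 and Zfp42 the sets overlapped. The bin of Pou5f1, whose gene lies at chr17:35506032-35510777, held 57, 48, 61 and 27 windows in the B16F nuclei and 68, 57, 67, 65, 47 and 30 in the B18F nuclei, in overlapping ranges (0.17 ± 0.26 SE, adjusted p = 0.822 in limma). That of Nanog (chr6:122707489-122714633) held 42 (Cell19) to 55 (Cell20) and 21 (Cell39) to 89 (Cell26), a difference of −0.16 ± 0.29 (SE). Differences were 0.01 ± 0.28 for Sox2 (chr3:34649995-34652461), 0.24 ± 0.27 for Klf4 (chr4:55527137-55532475) and −0.06 ± 0.26 for Zfp42 (chr8:43295067-43307009), each within its SE.

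Of 24 bins with an imprinted gene, 4 were higher and 0 lower, with a median difference of 0.21. They were the bin of Igf2, a fetal growth factor, with Ins2 and Ascl2 (0.83), that of Dlk1 and Rtl1 (0.92), that of Dio3, which inactivates thyroid hormone (0.82), and that of Sfmbt2, a Polycomb group gene (0.64). The Igf2 bin held 33, 21, 45 and 23 windows in B16F and 94, 49, 49, 54, 51 and 40 in B18F, so that only Cell39 was within the B16F range in windows. After scaling the sets overlapped in all 4 of these bins, and that of Igf2 had an adjusted p = 0.234 in limma. Bins of Dlk1 and of Dio3 lie in the second chromosome 12 run. The 5 bins of the Hox clusters, which encode body axis transcription factors, had 0 at p under 0.05 in either direction and a median of 0.26, and the 8 histone bins and 4 keratin bins also had 0 and medians of 0.10 and 0.14.

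Larger families stayed near the background. Bins with olfactory receptor genes had 2 higher and 2 lower of 84 (median −0.01), those with vomeronasal receptor genes 2 and 2 of 54 (−0.06), those with Zfp zinc finger genes 8 and 11 of 178 (0.05) and those with ribosomal protein genes 6 and 3 of 75 (0.14). The 290 bins without a protein-coding gene, sex chromosomes included, had 2 higher and 30 lower (median −0.20), and the 274 bins in the top 10% by gene number 18 higher and 8 lower (0.12).

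Positions were scaled to 0 at the lowest and 1 at the highest position of a nucleus. Each nucleus may have been cut from either end, so a scaled position names no place common to all nuclei, and distance from the midpoint (0 at the midpoint, 1 at either end) was compared beside it. The sampled axis was longer in B16F, 3 ± 1.05 axis units (SD, n = 4) against 1.8 ± 0.593 (SD, n = 6), so 1 slice step was a smaller part of it (0.0724 against 0.121 of the scaled axis, exact permutation p = 0.0476). What 1 axis unit stands for is not given in the sources used here.

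The windows of the B16F nuclei were centred near the middle of the sampled axis, as were those of Cell27, while the other B18F nuclei lay off centre. The mean scaled position of the windows was 0.453, 0.480, 0.491 and 0.4657 in Cell17 to Cell20, and 0.596, 0.313, 0.502, 0.342, 0.383 and 0.843 in the B18F nuclei. Cell26, Cell28 and Cell38 lay low, Cell25 somewhat high and Cell39 highest. In Cell39, 78.5% of the windows lay in the last 0.2 of the scaled axis, and in Cell26 48.4% in the first 0.2. Windows on the 0.2 unit grid of positions were also more concentrated in B18F, where the fullest 2 positions held 39.3% (Cell25), 57.1%, 60.6%, 47.0%, 48.9% and 83.3% (Cell39), against 29.3%, 31.8%, 25.9% and 43.6% in B16F. The means of 32.6% ± 7.68 (SD, n = 4) and 56.02% ± 15.3 (SD, n = 6) gave an exact permutation p = 0.0238 (adjusted p = 0.217), with Cell20 above the lowest B18F nucleus. Fewer slices leave fewer positions, and equal slices would give 8.70% (Cell17) to 16.7% (Cell19 and Cell20) in B16F and 13.3% (Cell25) to 28.6% (Cell26) in B18F.

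No bin passed for scaled position (0 of 2670 at an adjusted p of 0.05 in limma, 0.0%), and 19 (0.712%) had an unadjusted p under 0.05, 18 of them higher (0.674%) and 1 lower (0.0375%) in B18F. All B18F nuclei lay above all B16F nuclei in 3 bins (0.112%) and below them in 2 (0.0749%). The scaled position was higher in B18F in 1922 bins, but in 747 without Cell39, where 27 bins were higher and 39 lower at an unadjusted p under 0.05. Without any other 1 nucleus the count at that p ranged from 0 (Cell19) to 39 (Cell26). Where at least 5 windows per bin were required in every nucleus, it was 11 of 2632 bins. With percentile ranks over the bins of a nucleus in place of scaled positions, 198 bins (7.42%) had such a p, 92 of them lower and the others higher, and 0 passed adjustment (smallest adjusted p = 0.131). Ranks give every nucleus the same mean, so a shift shared by all bins cannot show in them. The standard deviation within a set had a median over bins of 0.0739 in B16F and 0.232 in B18F and was lower in B16F in 2620 of 2670 bins. The 3 bins with the smallest p were on Y, and their predicted genes belong to families of near-identical copies. In Y:49000001-50000000 the values were 0.442, 0.188, 0.0478 and 0.371 in B16F and 0.319 (Cell38) to 0.90 (Cell39) in B18F, in overlapping ranges (0.31 ± 0.12 SE, adjusted p = 0.999). The lowest differences lay at the start of chromosome 1. In chr1:3000001-4000000, with Xkr4, the values were 0.682, 0.532, 0.563 and 0.504 in B16F and 0.0898 (Cell28) to 0.557 (Cell25) in B18F (−0.27 ± 0.12 SE, adjusted p = 0.999). Next to it, in chr1:4000001-5000000, with Sox17, an endoderm transcription factor, the difference was −0.24 ± 0.12 (SE).

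Distance of a bin's mean position from the midpoint was higher in B18F almost throughout the genome, in 2591 of 2670 bins, with a median difference of 0.202. Taken over single windows, the mean distance of a nucleus was 0.398 to 0.516 in B16F and 0.428 to 0.849 in B18F, in overlapping ranges. That difference was 0.106 and did not pass (exact permutation p = 0.181, adjusted p = 0.294). Again 0 bins passed adjustment (0.0%), while 311 (11.6%) had an unadjusted p under 0.05, all of them higher in B18F, and in 150 (5.62%) every B18F nucleus was farther out than every B16F nucleus. The off-centre B18F nuclei move with this difference. Measured from the mean position of each nucleus, 1860 of 2670 bins were higher in B18F, with a median difference of 0.0376. At p under 0.05, 85 of those bins were higher and 11 lower. With ranks over the bins of a nucleus, which take out a shift shared by all bins, 59 were higher and 70 lower at that p. With the number of profiles as a covariate 75 bins were higher and 0 lower, and with file 0 alone 56 and 2. The count was 145, 128, 205 and 117 without Cell17, Cell18, Cell19 and Cell20, 182 without Cell26, 496 without Cell25 and 23.4% of bins without Cell27.

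In chr9:52000001-53000000, with Rdx, a linker of actin to the membrane, and Zc3h12c, distances were 0.0165, 0.0342, 0.0536 and 0.0936 in the B16F nuclei and 0.615, 0.840, 0.226, 0.343, 0.336 and 0.944 in the B18F nuclei. The sets did not overlap, and the difference was 0.501 ± 0.153 (SE, adjusted p = 0.349). In chr4:116000001-117000000, with 26 genes including Rad54l and Mutyh of DNA repair, the B16F nuclei lay at 0.0067 to 0.0915 and the B18F nuclei at 0.184 (Cell27) to 0.903 (Cell39), a difference of 0.447 ± 0.153 (SE). In chr1:109000001-110000000, which has no protein-coding gene, the ranges were 0.0421 to 0.149 and 0.187 to 0.958 (0.444 ± 0.153 SE). The order of nuclei was not the same in these bins: Cell28 was second farthest in the last of them and the third nearest of B18F in the first. The pattern of distances over bins was not more alike within a set (within minus between −0.0146 in mean correlation, exact permutation p = 0.486), and the 6 B16F pairs had correlations of 0.0109 to 0.105.

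All 20 chromosomes tested were farther from the midpoint in the B18F mean, by 0.144 (chromosome 8) to 0.246 (chromosome 15), and 0 passed adjustment in limma (0.0%), with 1 (5.0%) at an unadjusted p under 0.05. By exact permutation, 4 had an unadjusted p under 0.05, chromosomes 1, 12, 17 and X, and 0 passed (smallest adjusted p = 0.143). Chromosome 15 had values of 0.177, 0.132, 0.186 and 0.0954 in B16F and 0.160, 0.403, 0.186, 0.447, 0.292 and 0.875 in B18F, overlapping through Cell25 (limma p = 0.0428, adjusted p = 0.164, exact permutation p = 0.0714). Chromosome 4, the next, did not overlap: 0.137, 0.119, 0.145 and 0.122 against 0.163 (Cell27) to 0.893 (Cell39), a difference of 0.236 ± 0.121 (SE, adjusted p = 0.164). The third was chromosome 1 (0.226 ± 0.121 SE). The smallest differences after chromosome 8 were those of chromosome 5 (0.162) and chromosome 13 (0.163). Without Cell39, which has most of its windows at one end, 4 chromosomes passed in limma, 1, 12, 15 and X, with differences of 0.171, 0.188, 0.150 and 0.165 (adjusted p = 0.0308, 0.0288, 0.0480 and 0.0308 in limma). The chromosomes of a nucleus are not independent in distance, so these 4 are not separate results. Measured from the mean position of each nucleus, all 20 chromosomes were farther out in B18F and 0 had an unadjusted p under 0.05. With percentile ranks, which take out a shift shared by all chromosomes, 9 of 20 chromosomes were farther out in B18F.

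**Figure D5:**
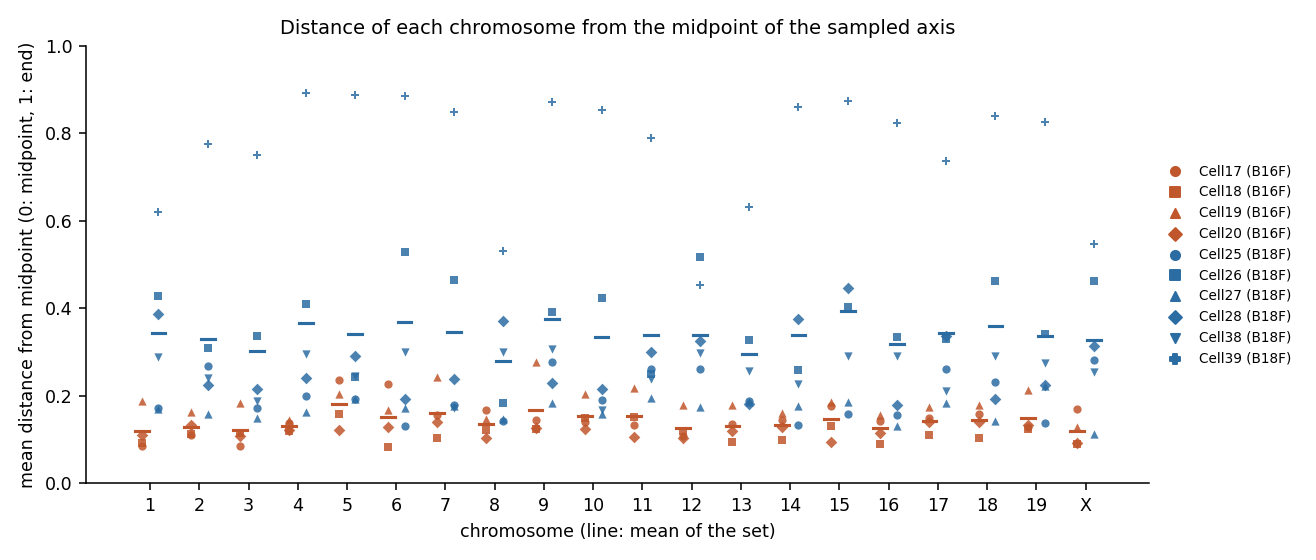
Mean distance of the 1 Mb bins of each chromosome from the midpoint of the sampled axis (0 at the midpoint, 1 at either end), by nucleus; colours are the sets and lines the means. The B16F nuclei reach at most 0.278 on every chromosome, and Cell39 is the farthest out on all chromosomes but 12.

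For the scaled position of whole chromosomes, 0 of 20 had an unadjusted p under 0.05, with the highest differences on chromosomes 10 (0.0946), 5 (0.0878) and 11 (0.0715) and the lowest on chromosomes 1 (−0.0321), 12 (−0.0309) and X (0.0066), each with an SE of 0.109. Cell39 was the highest nucleus on chromosomes 10 (0.926), 5 (0.944) and 11 (0.894), and 18 of 20 chromosomes were higher in B18F with it and 2 without it. With percentile ranks, which take out a shift shared by all chromosomes, 10 were higher and 4 had an unadjusted p under 0.05 (smallest adjusted p = 0.0880 in limma). How far a chromosome extended along the axis, measured as the standard deviation of the scaled positions of its bins, did not pass either (0 of 20, smallest adjusted p = 0.527). It was higher in B18F on 17 of 20 chromosomes with both files and on 1 with file 0 alone, where 3 had an unadjusted p under 0.05. That p was reached by 2 chromosomes without Cell19, 1 without Cell25 and 4 without Cell38. It was highest in difference on chromosome 17, at 0.0735 ± 0.0273 (SD, n = 4) in B16F and 0.113 ± 0.0337 (SD, n = 6) in B18F, then on chromosome 1 (0.0393) and chromosome 13 (0.0320). The lowest were chromosome 19 (−0.0088), chromosome 4 (−9.49e-05) and chromosome 5 (−4.79e-05).

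Of the other measures of a nucleus, none passed adjustment over the 13. Neighbouring autosomal bins correlated in coverage at 0.413, 0.506, 0.511 and 0.408 in B16F and 0.470 (Cell27) to 0.557 (Cell26) in B18F (exact permutation p = 0.0810). The percent of windows whose next window was also located was 44.8 ± 6.74 (SD, n = 4) in B16F and 52.2 ± 11.01 (SD, n = 6) in B18F (exact permutation p = 0.271). Windows in both files made up 16.4% ± 3.21 and 21.4% ± 9.11 (exact permutation p = 0.324). The log2 ratio of file 1 to file 0 was 0.10 in Cell17 and 1.36 to 1.64 in the other B16F nuclei, and −0.07 to 0.25 in the B18F nuclei other than Cell38, which had 1.78. File sizes were thus near equal in 6 nuclei and skewed to file 1 in 4, across both sets (exact permutation p = 0.171).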

How the data were processed

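DNA of single nuclear profiles was sequenced on Illumina HiSeq X, per the labels' protocols. Trim Galore 0.6.4, Bowtie2 2.3.5, Picard and the mm10 build are named in the submitters' processing notes. The authors deposited, in 20 files, a chromosome, a 10 kb window and a position along the cutting axis, in a unit not given in the sources used here. No read counts are in them, so read depth is unknown.

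Here, both files of a nucleus were combined, and coverage and mean position were taken per 1 Mb bin and chromosome. Each window counted once for coverage, while a window in both files entered positions and distances from each file. Such windows made up 9.26% (Cell38) to 31.5% (Cell25) of the located windows of a nucleus. Bins needed a mean of at least 5 windows, with a pseudocount of 1. Tables were tested with limma 3.58.1 (R 4.3.3, lmFit and eBayes, Benjamini-Hochberg adjustment, threshold 0.05), and single values by two-sided exact permutation over 210 splits of the nuclei, whose smallest p is 0.00476. The limma fit shares variance across bins or chromosomes, whose values in a nucleus are not independent, so its p-values may be too small. Python 3.11.15, numpy 2.4.6, pandas 2.3.3 and matplotlib 3.10.9 were used. In simulated coverage of 2669 bins, limma called 61 of 100 planted differences of 1 and 100 of 100 of 2 on the log2 scale, and 0 with nothing planted, besides 5 bins called that were not planted. For bin position it called 17 of 100 planted differences of 0.3 and 89 of 0.6, and for bin distance 14 and 75. Simulated bins were drawn independently with the same spread in both sets. In the data, neighbouring bins correlated and the spread was larger in B18F in most bins, so these rates need not hold there.

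Bins named are the 3 in each direction with the smallest p where none was called. Also named are 6 pluripotency loci, the 3 highest and 3 lowest chromosomes of each table and listed gene groups. Runs of bins, and genes and members within bins or lists, were picked after their values were seen. The sets and lists were chosen with earlier results of these data known. Gene positions are those of RefSeq for GRCm38.p6. Scaling, pseudocount, filters, bin size, single files, covariates and omission of each nucleus were tried as alternatives, and further ones were chosen after seeing the data. The 5 controls were left out, as they have no position file.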

Additional observations from a re-analysis of the deposited data

Results flagged for a closer look

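Of 188 groups of values over nuclei, 28 (14.9%) held 1 nucleus far from the rest of its set, where chance gives about 5%, or 1 in 20 groups. The values of a nucleus over chromosomes are not independent of each other. Most concerned Cell39 or Cell19.

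Cell39 stood apart from the other B18F nuclei in the coefficient of variation of bin coverage (0.664), the mean distance of its windows from the midpoint (0.849), its log2 coverage of chromosome 5 (0.25) and its spread on X (0.185). Its distance from the midpoint stood apart on chromosomes 2 (0.775), 3 (0.750), 4 (0.893), 5 (0.889), 9 (0.872), 11 (0.789), 13 (0.632), 14 (0.860), 16 (0.825), 17 (0.736) and 19 (0.825). Cell38 stood apart in the log2 ratio of file 1 to file 0 (1.78).

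Cell19 stood apart from the other B16F nuclei in the spread of chromosomes 2 (0.0967), 5 (0.122), 6 (0.100), 7 (0.146), 9 (0.152), 10 (0.110), 14 (0.0995) and 18 (0.115), in the distance of chromosomes 9 (0.278) and 19 (0.214), and in the lowest log2 coverage of chromosome 6 (0.0709). Cell17 had the lowest coefficient of variation of bin coverage (0.251).

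Windows on unplaced contigs, which entered no comparison, were listed in exactly 1 of the 2 files of every nucleus, 206 (Cell18) to 440 (Cell25) of them on 34 to 43 contigs. They were in file 1 of Cell17, Cell18, Cell26 and Cell38 and in file 0 of the other nuclei.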

How the results depend on the processing

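Over all results and alternatives, 298 values stayed as reported, 12 changed sign, 5 counts moved and 4 values missed the threshold. For bins and chromosomes, staying refers to the count of calls, not to direction, and the report gives where directions turned (position without Cell39 or with ranks, spread with file 0 alone). Ranks take out by construction a shift shared by all bins of a nucleus. The count of bins called for coverage was 1 with 250 kb bins and 3 with 5 Mb bins, and 0 to 4 without 1 nucleus (4 without Cell25, 1 without Cell28). The count of chromosomes called for distance was 0 to 4 without 1 nucleus (4 without Cell39). The cause was not tested. The excess of likeness in coverage within sets was 0.0556 to 0.150 without 1 nucleus and missed the threshold without any B16F nucleus, where 84 splits remain and the smallest p is 0.0119. That of distance was −0.0279 to 0.0193. With file 0 alone, the difference in the coefficient of variation was −0.0617. With file 1 alone, located windows differed by −0.16 (log2) and the percent of windows off the grid by −0.526. Without 1 nucleus these ran from −0.0403 to 0.266 and from −1.39 to 3.47. None of these 4 differences passed the threshold as reported. Subtracting chromosome means, distances from the mean position of a nucleus, and likeness after thinning, over autosomes or over bins with a mean of at least 20 windows were chosen after seeing the data.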

Other observations

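Profile numbers in the titles interleaved between nuclei of a set. The ranges of Cell17 and Cell18 overlapped, while Cell19 and Cell20 had ranges of their own. In B18F, the ranges of Cell25, Cell26, Cell27, Cell28 and Cell39 overlapped, and that of Cell38 stood alone.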
